A study of Mus musculus with 9 samples.

Results

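The 9 genes considered here encode the cAMP signalling machinery of the striatum: *Gnal*, *Gng7*, *Adcy5*, *Pde10a*, *Pde1b*, *Pde2a*, *Pde7b*, *Ppp1r1b* and *Rgs9*. They were taken as a list of symbols, and 8 of the 9 were found among the 15464 genes of the expression table. All 8 were among the 14239 genes that passed the filter on low values (3 or more libraries with a normalized count of 10 or above). *Pde2a* was not analysed here, because its own identifier has no row. A row for *Gm45837* overlaps it on the same strand of chromosome 7 and shares 3955 of the 6149 annotated exonic bases of *Pde2a* (64.3%). Reads that fall within the shared bases cannot be told apart, so the row was kept aside. The sources used here do not say whether the annotation behind the table gave *Pde2a* that row's identifier, in which case the row would hold *Pde2a* itself.

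Medium spiny neurons, the output neurons of the striatum, read dopamine and adenosine through cAMP. Some of their receptors, not all, act on a G protein made of the olfactory-type alpha subunit (*Gnal*) and the gamma subunit encoded by *Gng7*, which stimulates adenylyl cyclase type 5 (*Adcy5*). The cAMP formed activates protein kinase A, phosphodiesterases (*Pde10a*, *Pde1b*, *Pde2a*, *Pde7b*) break it down, the protein kinase A substrate DARPP (*Ppp1r1b*) inhibits protein phosphatase when phosphorylated, and *Rgs9* shortens signals of inhibitory G proteins.

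RNA-seq was performed on the striatum of male mice aged 10 to 12 weeks on the C57BL/6J background, with 3 wild-type (WT), 3 heterozygous (HET) and 3 knock-out (KO) littermates of the *Shank3B* line and 1 mouse for each library. In this line internal exons of *Shank3*, which encodes a scaffold of excitatory synapses, are targeted in the germline, so that all cells of the animal carry the allele, and no group received a treatment. The comparison of the 3 genotypes asks whether expression follows the number of intact *Shank3* alleles (2, 1 and 0). Values are normalized counts summed over each whole gene, and the sums over all genes ranged from 30830020 to 33790296 among the 9 libraries.

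The libraries were checked before the results were read. *Shank3* had normalized counts of 7209, 8812 and 6043 in WT, 7575, 7098 and 8050 in HET, and 10237, 10798 and 10578 in KO, so the libraries labelled KO were separated from the rest by a higher total, which includes reads from exons that are not targeted. HET 3 and KO 3 stood apart from the other 7 libraries on the first principal component, which held 33.6% of the variance. All 12 medium spiny neuron markers were detected, and their summed normalized counts ranged from 50953 to 95674 in WT, from 67701 to 84057 in HET and from 48928 to 71545 in KO.

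The genes are spread over the genome. In GRCm38 coordinates, *Adcy5* lies on chr16:35154877-35305738 (plus strand), *Pde10a* on chr17:8525372-8986648 (plus), *Pde1b* on chr15:103503034-103530052 (plus), *Pde7b* on chr10:20398004-20725078 (minus), *Gng7* on chr10:80948624-81014945 (minus), *Rgs9* on chr11:109225355-109298129 (minus) and *Ppp1r1b* on chr11:98348404-98357796 (plus).

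To show what lies upstream of these genes, the promoter sequences in RefSeq (GRCm38.p6) were searched for the cAMP response element (CRE, TGACGTCA), its core (TGACG, which also lies within the full element) and the GC box (GGGCGG), on both strands. The windows took in the 250 bases upstream of each annotated start, and 10 windows matched 6 of the 8 genes. The CRE was in 0 of the 10 windows and in 1.55% of all 32851 promoter windows, and the core was in 1 window, of *Gng7*, against 17.8% of all. The GC box was in 5 of the 10 windows, of 5 genes, against 32.7% of all windows. Those 5 windows had a GC content of 59.6% to 78.0%, beside a median of 52.4% over all windows. The further windows of *Pde1b*, *Pde10a* and *Gng7* hold no GC box. All motif counts are matches of letters, not sites of binding. Windows of the cyclase, a phosphodiesterase and the RGS gene are shown side by side, as genes whose levels across libraries are compared below, and the GC boxes on either strand are in capitals. They are chr16:35154614-35154863 (plus strand) for *Adcy5*, chr15:103502784-103503033 (plus) for *Pde1b* and chr11:109298182-109298431 (minus) for *Rgs9*, and hold 4, 2 and 1 GC boxes.
Adcy5: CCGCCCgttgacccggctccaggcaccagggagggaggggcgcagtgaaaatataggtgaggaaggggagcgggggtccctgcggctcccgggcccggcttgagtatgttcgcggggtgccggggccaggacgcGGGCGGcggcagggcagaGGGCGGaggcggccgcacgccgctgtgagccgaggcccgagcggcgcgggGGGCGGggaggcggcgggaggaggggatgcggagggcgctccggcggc
Pde1b: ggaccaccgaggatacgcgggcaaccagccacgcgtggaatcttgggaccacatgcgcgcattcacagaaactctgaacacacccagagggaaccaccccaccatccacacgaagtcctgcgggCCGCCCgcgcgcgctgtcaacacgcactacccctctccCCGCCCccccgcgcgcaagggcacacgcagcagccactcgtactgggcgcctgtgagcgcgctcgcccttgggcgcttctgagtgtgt
Rgs9: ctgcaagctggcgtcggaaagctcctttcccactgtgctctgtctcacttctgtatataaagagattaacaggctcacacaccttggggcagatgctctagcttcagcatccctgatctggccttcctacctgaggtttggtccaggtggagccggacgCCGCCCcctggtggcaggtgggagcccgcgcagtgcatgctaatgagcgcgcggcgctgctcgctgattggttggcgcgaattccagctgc

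None of the 8 genes passed the test for a difference between genotypes. With limma on log2(normalized count + 1) and Benjamini-Hochberg adjustment over all 14239 genes, 0 of 8 passed an adjusted p of 0.05 in HET against WT, in KO against WT or in KO against HET, where 0 of all genes (0%) passed. At an unadjusted p below 0.05 the counts were again 0 of 8, beside 158 genes (1.11% of those tested) in HET against WT, 117 (0.822%) in KO against WT and 186 (1.31%) in KO against HET. The libraries overlapped between genotypes for all 8 genes in each comparison, while 4.45%, 4.54% and 4.45% of all genes had libraries that did not overlap. *Shank3* did not pass in KO against WT either (log2 fold change 0.54, unadjusted p 0.0019, adjusted p 0.999, limma), though its libraries did not overlap. The study, which used DESeq2 and a different correction of p, did call *Shank3* in KO. The result of 0 of 8 therefore does not show that the levels are equal.

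**Figure D1:**
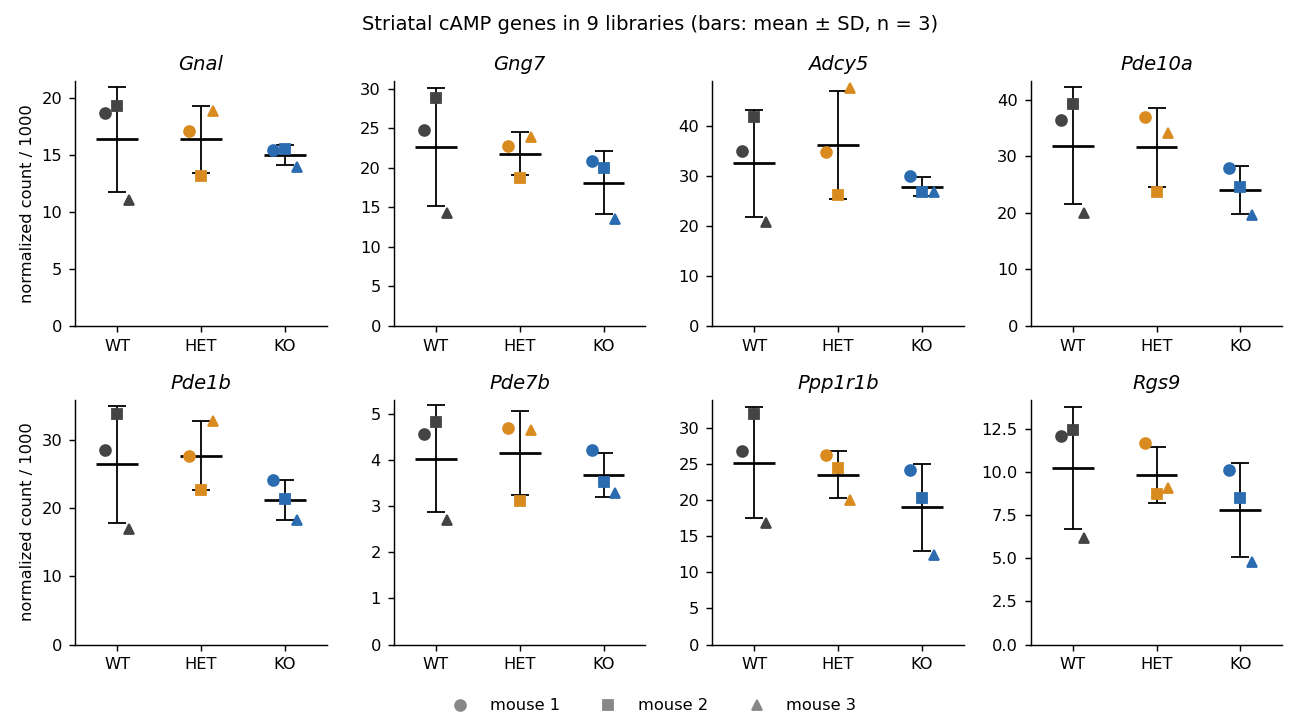
Normalized counts (divided by 1000, axes from 0) of the 8 genes in the 9 libraries, by genotype. Symbols mark the mouse number and bars the mean ± SD of 3 mice. WT 3 is the lowest of the WT libraries in all 8 panels, and genotypes overlap in each.

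All 8 genes nevertheless had a lower mean log2 value in KO than in WT, with log2 fold changes from -0.41 to -0.09 and a median of -0.28, beside a median of 0.0047 over all genes. The genes vary together across libraries (median Pearson's r of 0.90 over 28 pairs), so they are not 8 separate observations. The share of all genes lower in KO was not counted, and no direction is read from the 8. In HET against WT, 5 were higher and 3 lower, between -0.06 and 0.17 with a median of 0.03. These comparisons share the WT libraries. In KO against HET all 8 were lower, with a median of -0.35. The 95% intervals were wide, and in KO against WT they ran from 0.469-fold to 1.23-fold for *Rgs9* and from 0.592-fold to 1.35-fold for *Adcy5*.

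**Figure D2:**
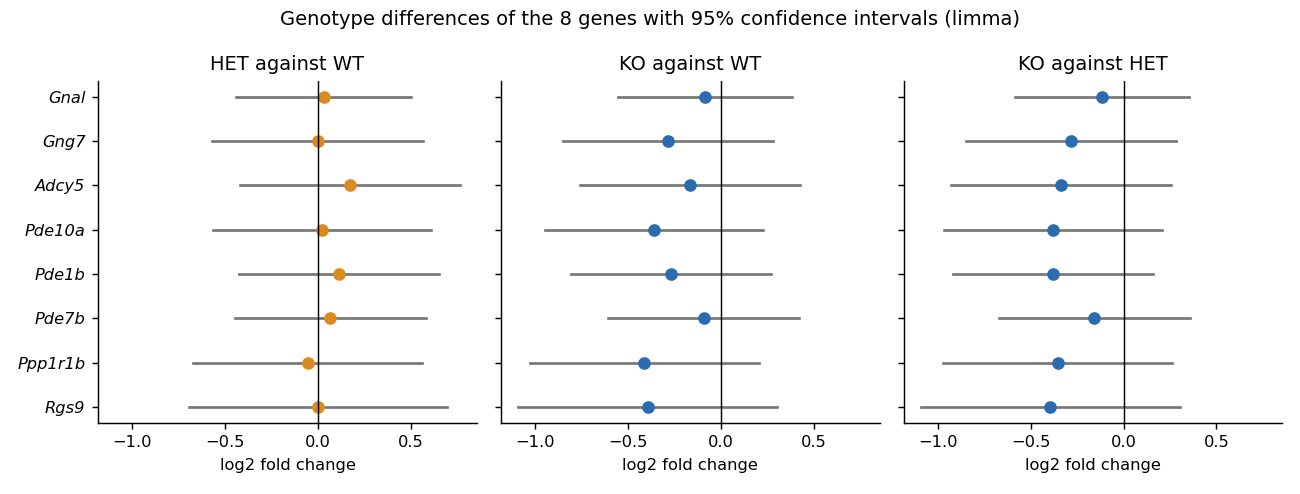
Log2 fold changes of the 8 genes (points) with 95% confidence intervals from limma (lines) in each of the 3 comparisons. Every interval crosses 0, and all points lie below 0 in both comparisons of the KO mice.

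The G protein subunits stand first in the pathway. *Gnal* had normalized counts of 18758, 19371 and 11069 in WT, 17146, 13185 and 18918 in HET, and 15490, 15556 and 13983 in KO. The means were 16399 ± 4626 (SD, n = 3), 16416 ± 2935 and 15010 ± 890, and the KO values lay within the span of WT. The log2 fold change was 0.03 ± 0.21 (SE) in HET and -0.09 ± 0.21 in KO, the smallest difference from WT among the 8 genes in KO, with exact permutation p of 0.9 and 1.

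*Gng7* had 24828, 28811 and 14310 in WT, 22707, 18704 and 23951 in HET, and 20806, 20006 and 13581 in KO. WT 3 and KO 3 were low and near each other. Its log2 fold change was -0.003 ± 0.25 (SE) in HET and -0.29 ± 0.25 in KO, with exact permutation p of 1 and 0.5.

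*Adcy5*, the cyclase on which the receptor signals converge, had normalized counts of 34963, 41757 and 20843 in WT, 34836, 26108 and 47662 in HET, and 30052, 26733 and 26889 in KO. HET 3 held the highest value of all libraries and WT 3 the lowest, while the 3 KO mice lay close together. Against WT, the log2 fold change was 0.17 ± 0.27 (SE) in HET and -0.16 ± 0.27 in KO, with exact permutation p of 0.7 and 0.6.

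The phosphodiesterases differ in what they cleave and in what drives them. *Pde10a*, whose enzyme cleaves both cAMP and cGMP, had 36309, 39151 and 20026 in WT, 36881, 23732 and 34054 in HET, and 27946, 24630 and 19599 in KO. The KO libraries lay below WT 1 and WT 2, but WT 3 fell among them. The log2 fold change was 0.02 ± 0.26 (SE) in HET and -0.36 ± 0.26 in KO, with exact permutation p of 0.9 and 0.3.

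*Pde1b*, of the calcium-calmodulin activated class, had 28559, 33781 and 16945 in WT, 27722, 22610 and 32868 in HET, and 24105, 21329 and 18269 in KO. Again WT 3 was below all KO libraries and the other WT libraries above them. It had a log2 fold change of 0.11 ± 0.24 (SE) in HET and -0.27 ± 0.24 in KO, with exact permutation p of 0.9 and 0.5. Against HET, the KO mice had a log2 fold change of -0.38 ± 0.24 and an exact permutation p of 0.2, where 3 against 3 libraries cannot go below 0.1.

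*Pde7b*, of a cAMP-specific class, was the least abundant of the 8, with 4577, 4827 and 2700 in WT, 4715, 3108 and 4669 in HET, and 4223, 3532 and 3294 in KO. Its KO libraries lay within the span of both other genotypes. The log2 fold change was 0.07 ± 0.23 (SE) in HET and -0.09 ± 0.23 in KO, with exact permutation p of 0.8 in both. The *Gm45837* row that overlaps *Pde2a* held 17990 to 25531 in WT, 19642 to 23224 in HET and 18859 to 21124 in KO, with exact permutation p of 0.8 in HET and 0.4 in KO.

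Downstream of cAMP, *Ppp1r1b* had 26888, 31982 and 16786 in WT, 26253, 24496 and 19984 in HET, and 24272, 20303 and 12449 in KO. KO 3 was the lowest library, yet the other KO values were above WT 3. This gene had the lowest log2 fold change in KO, -0.41 ± 0.28 (SE), with an exact permutation p of 0.4, and that in HET was -0.06 ± 0.28, with an exact permutation p of 0.8. Same-numbered HET and KO libraries deviated together, with r from 0.28 to 0.52, while those of WT and KO did not in all 3 numbers (from -0.22 to 0.24), and the labels do not say what a number marks. Of the 8 genes, *Ppp1r1b*, *Pde1b* and *Rgs9* were lower in KO than in HET in all 3 same-numbered pairs. The share of all genes with this order was not counted, and the 8 genes vary together, so no result is read from it. With the number as a replicate block, the SE for *Ppp1r1b* was 0.14. Its unadjusted limma p was 0.033 in KO against HET and 0.017 in KO against WT, with adjusted p of 0.9996 and 0.999 (limma, Benjamini-Hochberg). It was the only 1 of the 8 with an unadjusted p below 0.05 there, beside 318 (2.23%) and 310 (2.18%) of all genes.

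*Rgs9*, whose protein speeds the return of inhibitory G proteins to rest, had 12088, 12461 and 6178 in WT, 11721, 8755 and 9055 in HET, and 10101, 8483 and 4775 in KO. WT 3 and KO 3 were again the lowest of the 9. Its log2 fold change was -0.0007 ± 0.31 (SE) in HET and -0.39 ± 0.31 in KO, with exact permutation p of 1 and 0.5, and its SE was the highest of the 8 genes.

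A fit of the log2 level on the number of intact alleles gave slopes from 0.04 (*Gnal*) to 0.21 (*Ppp1r1b*) for each allele, all 8 positive. None of the 8 passed an adjusted p of 0.05 (limma, Benjamini-Hochberg) or an unadjusted p below 0.05, while of all genes 0 (0%) had such an adjusted p and 138 (0.969%) such an unadjusted p. Without WT 3, 6 of the 8 had an unadjusted p below 0.05 for the slope (all but *Adcy5* and *Pde7b*), as did 347 of all genes (2.44%), and without WT 3 and KO 3 there were 5 beside 378 (2.65%), with 0 past the adjusted threshold in either fit.

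The size of the differences between genotypes, and the sign of some, depended on single libraries. In KO against HET, 8 of 8 stayed lower with any single library left out, with medians from -0.43 to -0.085. Without HET 3 and KO 3 together, 6 were lower and 2 higher in that comparison. The SD within a genotype had a median of 0.39 on the log2 scale over the 8 genes, against 0.19 over all genes tested, and each of the 8 exceeded at least 76.8% of all genes. Over genes with a mean normalized count of at least 1000, nearer in level to the 8, the median SD was 0.15. WT 3 was the lowest WT library for 8 of 8 genes and WT 2 the highest for 8 of 8, and KO 3 was the lowest KO library for 7 of 8. Without WT 3, the median log2 fold change of the 8 genes was -0.57 in KO and -0.26 in HET, both with 8 of 8 lower, and 5 genes (*Ppp1r1b*, *Gng7*, *Pde10a*, *Pde1b* and *Rgs9*) had an unadjusted p below 0.05 in KO by limma, as did 292 of all genes (2.05%), with 0 past the adjusted threshold. Without WT 2, the medians were -0.07 in KO (3 higher and 5 lower) and 0.20 in HET (8 higher). Without WT 1 they were -0.19 in KO (2 higher and 6 lower) and 0.15 in HET (8 higher), and without KO 3 that in KO was -0.11. Without WT 3 and KO 3, left out together after seeing the data, the KO median was -0.40, with the same 5 genes among 339 (2.38% of all) at an unadjusted p below 0.05 and 0 past the adjusted threshold, and without HET 3 and KO 3 it was -0.11.

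Levels were set beside each other per kb of exon, over the union of the exons of all annotated transcripts. Averaged over the 9 libraries, *Ppp1r1b* stood highest with 7719 normalized counts per kb, followed by *Gng7* (5509), *Pde1b* (4658), *Adcy5* (4483), *Pde10a* (2268), *Rgs9* (1454), *Gnal* (1427) and *Pde7b* (318). Of the 7 steps between neighbours, 5 held in all 9 libraries (exact sign-flip permutation p = 0.0039, adjusted p = 0.0055). *Pde1b* and *Adcy5* could not be ordered (exact permutation p = 0.15, higher in 7 of 9 libraries), nor could *Rgs9* and *Gnal* (exact permutation p = 0.96). With the longest transcript as the length, *Gng7* and *Pde1b* did not differ beyond their spread (exact permutation p = 0.49) and *Pde1b* stood above *Adcy5* in 9 of 9 libraries, so the order depends on the annotated length.

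Each gene was next read as a share of its family, from levels per kb. *Adcy5* held 40.3% to 58.4% of the summed level of the 10 adenylyl cyclases, followed by *Adcy1* with a mean of 20.2% and *Adcy2* with 15.7%. *Gng7* held 36.8% to 56.4% of 11 G gamma genes, and *Gng3* came next with a mean of 23.7%. *Gnal* held 21.4% to 39.4% of the sum of *Gnal* and *Gnas*, the broadly expressed stimulatory alpha subunit.

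*Pde1b* (mean 41.5%), *Pde10a* (20.2%) and *Pde7b* (2.85%) together made up 53.8% to 72.3% of the level of 23 phosphodiesterase genes, ahead of *Pde1a* (8.76%) and *Pde4a* (5.78%). With the *Gm45837* row counted as a family member, the WT mean of the 3 genes together was 45.0% instead of 66.1%. *Rgs9* held a mean of 10.5% of 16 RGS genes, in which *Rgs4* had 53.8%, and *Ppp1r1b* held 80.0% of the sum with *Ppp1r1a* and *Ppp1r1c*.

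The shares of WT overlapped those of HET and of KO for all families. *Adcy5* had 51.1% ± 9.57 (SD, n = 3) of its family in WT, 53.2% ± 4.10 in HET and 46.6% ± 4.22 in KO, and the 3 phosphodiesterases together had 66.1% ± 8.31, 67.4% ± 3.15 and 60.3% ± 5.96. Exact permutation p was between 0.3 and 1 for all shares in both comparisons with WT. HET and KO overlapped for the other shares but not for *Adcy5* (49.4% or more in HET, 49.1% or less in KO) or *Pde1b* (42.6% or more and 41.9% or less). Their difference in shares was not tested, and no rate over other families was computed. Full separation of 3 against 3 libraries gives an exact permutation p of 0.1 at the least, so no difference is read from it. Here too WT 3 was the lowest WT library in the share of *Adcy5* (40.3%), *Gng7* (37.1%) and *Gnal* (22.2%).

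**Figure D3:**
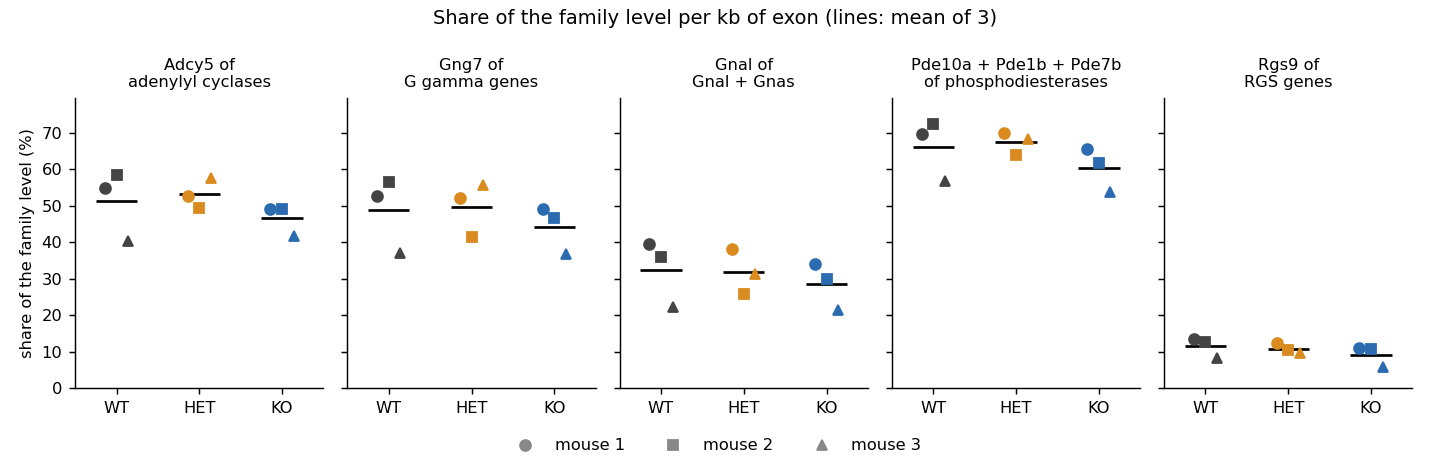
Share of the summed family level per kb of exon (%, axis from 0) for *Adcy5*, *Gng7*, *Gnal*, the 3 phosphodiesterases together and *Rgs9*, by genotype and mouse, with lines at the mean of 3. The shares of *Adcy5* run from 40.3% to 58.4%, and WT overlaps HET and KO in each panel.

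Across libraries the genes varied together. Over the 28 pairs, Pearson's r of the log2 values over 9 libraries ran from 0.50 (*Ppp1r1b* and *Adcy5*) to 0.96 (*Ppp1r1b* and *Rgs9*) with a median of 0.90, and 24 of 28 pairs had an adjusted exact permutation p below 0.05. Spearman's rho ran from 0.45 to 0.95, with 25 of 28 pairs. Taken as deviations from the genotype means, r ran from 0.44 to 0.98. Without WT 3 and KO 3, the libraries farthest from the median, r ran from 0.17 to 0.97 with 15 of 28 pairs by the exact permutation test, so the relation of some pairs rests on those libraries.

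HET 3 and KO 3 departed from the common pattern. Without them r ran from 0.85 to 0.99, with 28 of 28 pairs by the exact permutation test. The count ratio of *Adcy5* to *Ppp1r1b* was between 1.07 and 1.33 in the other 7 libraries, but 2.38 in HET 3 and 2.16 in KO 3. The ratio of *Adcy5* to *Rgs9* was between 2.89 and 3.37 in the other 7 and 5.26 and 5.63 in these libraries, while that of *Rgs9* to *Ppp1r1b* stayed between 0.357 and 0.453 in all 9. The ratio of *Gnal* to *Gng7* was 1.03 in KO 3 and between 0.672 and 0.790 in the other 8. With genes sorted into 4 classes by transcript length, HET 3 differed from the other HET libraries by a median of -0.04 to 0.03 on the log2 scale, and KO 3 from the other KO libraries by -0.02 to 0.02. Of the 8 genes, KO 3 differed by -0.83 for *Ppp1r1b* (longest transcript 2001 bases), -0.59 for *Gng7* (3433) and -0.95 for *Rgs9* (3464). The differences were -0.31 for *Pde1b* (4215), -0.23 for *Pde7b* (5364), -0.15 for *Gnal* (5736), -0.08 for *Adcy5* (7008) and -0.42 for *Pde10a* (7769). In HET 3 they ran from -0.34 for *Ppp1r1b* to 0.66 for *Adcy5*, and in WT 3 from -0.99 to -0.78. A part of transcript length in them was not tested.

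**Figure D4:**
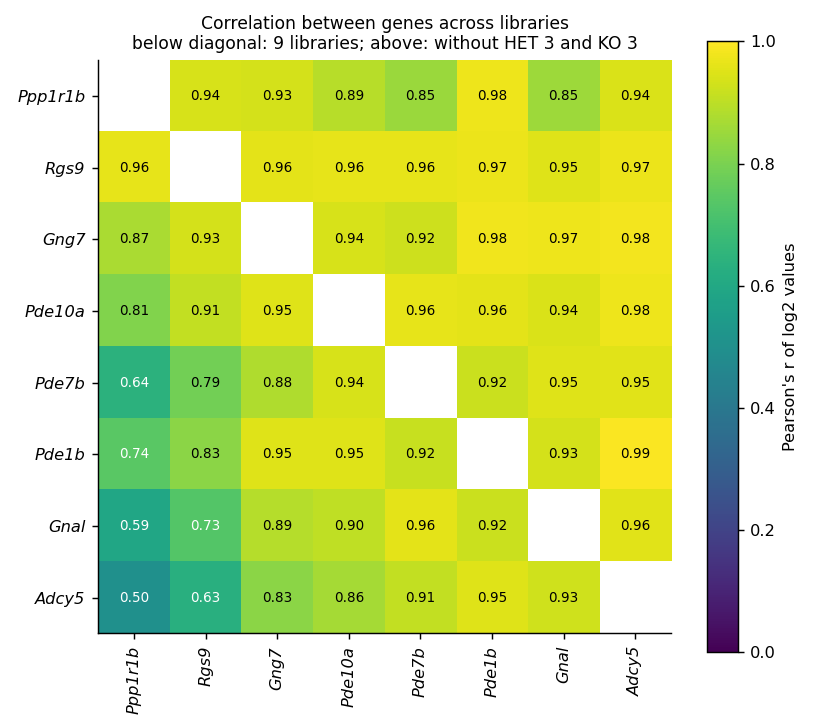
Pearson's r between the log2 values of the 8 genes across libraries, over all 9 below the diagonal and without HET 3 and KO 3 above it (colour scale from 0 to 1). The pair of *Ppp1r1b* and *Adcy5* has 0.50 below and 0.94 above.

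The same variation was seen in markers of medium spiny neurons. The mean deviation of the 8 genes and that of the 12 markers (among them *Drd1*, *Drd2*, *Adora2a*, *Penk*, *Pdyn* and *Tac1*) had r = 0.996 and Spearman's rho = 0.93 over 9 libraries, 0.991 without WT 3 and KO 3, the farthest libraries, 0.996 without HET 3 and KO 3, and 0.996 within genotypes. Single markers followed the mean of the 8 genes less closely, from r = 0.44 for *Pdyn* and 0.67 for *Tac1* to 0.96 for *Foxp1* and *Rxrg*. The other 11 lists had r = -0.75 (cortical glutamatergic neurons), -0.67 (astrocytes), -0.47 (thalamic and septal neurons), -0.45 (choroid plexus), -0.36 (blood), -0.33 (neuronal activity), -0.15 (oligodendrocytes), -0.09 (ependyma), -0.08 (vessels), 0.13 (striatal interneurons) and 0.45 (microglia), and no marker in the table was at 0 in all libraries. Several of these values turned on a few libraries. Without HET 3 and KO 3, r was -0.86 for oligodendrocytes, -0.82 for astrocytes, -0.73 for ependyma, -0.66 for cortical neurons and -0.44 for striatal interneurons. Without the 2 libraries farthest from the median of each list, it was -0.61 for oligodendrocytes, -0.80 for ependyma, 0.15 for blood and 0.47 for striatal interneurons. The summed cortical markers ranged from 44502 to 58851 in WT, from 40799 to 55474 in HET and from 45497 to 66778 in KO, and WT 3 (0.23 on the log2 scale) and KO 3 (0.33) were above the mean of the 9 libraries. Both were also above it for thalamic and septal neurons, choroid plexus, astrocytes and neuronal activity, and below it for microglia. They lay on opposite sides for oligodendrocytes (0.35 in WT 3 and -0.55 in KO 3), ependyma (0.38 and -0.98) and striatal interneurons (0.24 and -0.26). The same held for blood (0.58 and -0.16) and vessels (-0.06 and 0.05). In bulk tissue, fewer cells of a type and less RNA per cell cannot be told apart, and the part of dissection in these differences was not tested.

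**Figure D5:**
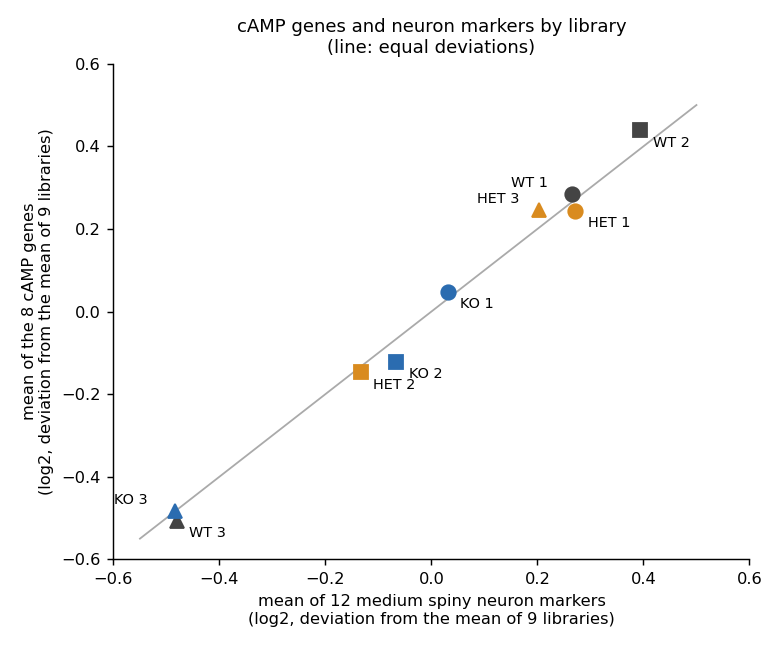
Mean log2 deviation of the 8 cAMP genes against that of the 12 medium spiny neuron markers in each library, with a line of equal deviations. The points run along the line from WT 3 (-0.51 for the genes, -0.48 for the markers) and KO 3 to WT 2 (0.44 and 0.39).

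Single genes followed the markers to different degrees. *Gng7* (r = 0.985) and *Pde10a* (r = 0.983) were closest, and *Adcy5* (r = 0.84) and *Ppp1r1b* (r = 0.86) least close, with adjusted exact permutation p at or below 0.0042 for all 8. The rank correlation ran from 0.78 (*Adcy5*) to 1 (*Pde10a*), with adjusted exact permutation p at or below 0.017. Without WT 3 and KO 3, r was 0.60 for *Ppp1r1b* and 0.82 for *Adcy5*. Relative to the markers, *Adcy5* was 0.41 higher in HET 3 and 0.27 higher in KO 3 on the log2 scale, while *Ppp1r1b* stood at -0.33 in both and *Rgs9* at -0.18 and -0.42.

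The genotype means of the markers had the same signs as those of the 8 genes. Their mean log2 difference was 0.05 in HET (exact permutation p = 0.9) and -0.23 in KO (exact permutation p = 0.5) against WT, and the 8 genes minus the markers differed by -0.01 and -0.03. A fit with the marker mean as a covariate, chosen after seeing the data, can show only what departs from the markers, since the covariate and the mean of the 8 genes vary almost alike. In it the KO against WT log2 fold changes ran from -0.17 (*Ppp1r1b*) to 0.14 (*Pde7b*) with a median of -0.02, with 3 higher and 5 lower, and the HET values from -0.10 (*Ppp1r1b*) to 0.12 (*Adcy5*). None of the 8 genes had an unadjusted p below 0.05 or an adjusted p below 0.05 (limma, Benjamini-Hochberg) in that fit.

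Among the tested genes outside the 8, those most like the mean of the 8 across the 9 libraries were *Asic4* (r = 0.99), of the acid-sensing channel family, the sodium-calcium exchanger gene *Slc8a3* (0.98), the growth factor gene *Tgfa* (0.98), the sphingomyelinase gene *Smpd3* (0.97) and *Crocc* (0.97), which encodes rootletin. Of all 14239 genes, 88 (0.618%) had r of at least 0.9, of which 6 belong to the 8 whose mean was used and 82 do not, 13 had r of -0.9 or below, and *Shank3* had r = 0.02. For single members the most similar gene was *Penk*, the enkephalin precursor, for *Ppp1r1b* (0.98), the dopamine receptor gene *Drd2* for *Adcy5* (0.99), *Zswim5* for *Gnal* (0.98), *Slc8a3* for *Gng7* and *Pde10a* (0.98 in both), the actinin gene *Actn2* for *Pde1b* (0.98), *Mbtps1* for *Pde7b* (0.97) and the retinoic acid receptor gene *Rarb* for *Rgs9* (0.99). *Gm45837* had r = 0.93 with the mean of the 8. These values are descriptions, since all points come from the same 9 libraries.

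The rest of the pathway was read from 12 lists, in which 144 genes other than the 8 were tested. None passed the adjusted threshold (limma, Benjamini-Hochberg), and at an unadjusted p below 0.05 there were 1 higher and 1 lower in HET (1.39% of the 144, beside 1.11% of all genes) and 1 lower in KO (0.694% beside 0.822%), shares near those of all genes. The median log2 fold change of these 144 genes was -0.03 in KO, against -0.28 for the 8. Without the 8, the 16 other phosphodiesterases tested had 11 higher and 5 lower in KO with a median of 0.09, the 8 other adenylyl cyclases 6 higher and 2 lower with 0.09, and the 10 other G gamma genes 3 higher and 7 lower with -0.09. The 22 other genes of the list of DARPP and the phosphatases had 5 higher and 17 lower in KO with a median of -0.07, and the 25 receptors, which include *Drd1*, *Drd2* and *Adora2a* of the marker list, 10 higher and 15 lower with -0.09. In the remaining lists, again without the 8, the KO median was 0.01 for *Gnas* and *Ric8b* of the stimulatory alpha list, 0.07 for 6 inhibitory alpha subunits, -0.01 for 4 beta subunits, -0.05 for 7 genes of guanylyl cyclases and protein kinase G, -0.02 for 19 of protein kinase A, EPAC and anchors, -0.04 for 16 RGS proteins and partners and 0.04 for 9 of cAMP-responsive transcription.

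These 3 genes, named by the rule and not as changed, were the following. *Gngt2*, another G gamma gene, had 54.0, 63.0 and 46.7 in WT against 65.7, 85.8 and 85.4 in HET, a log2 fold change of 0.52 ± 0.21 (SE). *Adcyap1r1*, the receptor of the neuropeptide PACAP, had 5566, 4976 and 5556 in WT against 4593, 4759 and 4542 in HET, a log2 fold change of -0.21 ± 0.09. HET libraries did not overlap WT for either gene. *Akap9*, which anchors protein kinase A, had 5429, 4994 and 3759 in WT against 3521, 3975 and 2007 in KO, a log2 fold change of -0.62 ± 0.28, and KO 2 lay above WT 3.

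Direct partners of the 8 genes passed no test either. *Gnas* had 28861, 34686 and 38934 in WT and 30134, 36460 and 51421 in KO, a log2 fold change of 0.18 ± 0.22 (SE), and WT 3 and KO 3, low for *Gnal*, were the highest of their genotypes. HET 3, however, was the highest HET library for both *Gnas* (41766) and *Gnal* (18918). *Ric8b*, a chaperone of the stimulatory alpha subunits, had a log2 fold change of 0.01 ± 0.20 in HET and -0.15 ± 0.20 in KO. For the partners of *Rgs9*, *Gnb5* had -0.05 ± 0.19 and the membrane anchor *Rgs7bp* -0.28 ± 0.17 in KO. *Prkaca*, the catalytic subunit of protein kinase A, had -0.17 ± 0.13 in HET and -0.14 ± 0.13 in KO, and the cAMP-regulated phosphoprotein gene *Arpp21* had 0.02 ± 0.17 and -0.21 ± 0.17. None of these reached an unadjusted p below 0.05.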

How the data were processed

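The study made RNA-seq libraries with a stranded mRNA kit from the striatum of 9 mice, 1 mouse for each library. The deposited values are a signal, normalized counts per gene: the authors quantified transcripts with Salmon 0.9.1 against GRCm38, summed them to genes with tximport and scaled them with DESeq2 1.19.11 in R 3.6.0. Quantification against transcripts can split reads between overlapping genes. Low values do not fall on whole multiples of a read, so no count model was used, the depth in reads is unknown, and the spread between mice sets the precision.

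Samples were grouped from their labels, and columns were matched to them by name. Values were analysed as log2(normalized count + 1) for genes with at least 10 in at least 3 libraries with limma 3.58.1 in R 4.3.3 (all 9 libraries, trend in the variance prior), with Benjamini-Hochberg adjustment over 14239 genes at a threshold of 0.05. Fits were tested on simulated data. Exact permutation tests were two-sided and run in Python 3.11.15. Symbols, exon lengths and coordinates came from the GENCODE annotation of GRCm38, which named 15457 of 15464 rows. Deviations of libraries with the same number from their genotype means correlated at 0.52, 0.28 and 0.51 between HET and KO, but at 0.24, -0.22 and 0.02 between WT and KO and 0.32, -0.01 and 0.01 between WT and HET, so the numbers pair HET with KO by this measure only and nothing in the labels says what they share.

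The 8 genes, the 12 pathway lists and the 12 marker lists were chosen with earlier results of these data known. Levels of single marker genes are not all reported here. Genes outside the 8 were named where they had an unadjusted p below 0.05 against WT, are direct partners, or correlated best with the 8. Alternatives changed the pseudocount, filter, scaling, variance prior, weights, pairing, gene length and the libraries included.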

Additional observations from a re-analysis of the deposited data

How the results depend on the processing

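In all 24 alternatives to each genotype comparison and 23 to the slope, 0 of the 8 genes and 0 of all genes passed the adjusted threshold (limma). Genes at an unadjusted p below 0.05 numbered 113 to 394 in HET against WT, 72 to 395 in KO against WT, 139 to 318 in KO against HET and 82 to 603 for the slope. With the replicate block, 0 genes passed the adjusted threshold, and 365 (2.56%), 310 (2.18%), 318 (2.23%) and 341 (2.39%) had an unadjusted p below 0.05. Of the 8 genes, *Ppp1r1b* was the single gene at that level in KO against WT, in KO against HET and for the slope. Leaving out each library in turn, the median log2 fold change of the 8 genes ran from -0.26 to 0.20 in HET against WT, from -0.57 to -0.071 in KO against WT and from -0.43 to -0.085 in KO against HET. The sign of single genes changed as follows. With array weights, the log2 fold change was in HET against WT -0.045 for *Adcy5*, -0.092 for *Gnal*, -0.076 for *Pde10a*, -0.051 for *Pde1b* and -0.040 for *Pde7b*. With quantile normalization, the log2 fold change was in HET against WT -0.0059 for *Gnal* and -0.040 for *Pde10a*. With trimmed mean rescaling, the log2 fold change was in HET against WT 0.0013 for *Rgs9*. Without HET 3 and KO 3 together, the log2 fold change was in HET against WT 0.059 for *Ppp1r1b*, -0.050 for *Adcy5*, -0.081 for *Gnal*, -0.046 for *Pde10a*, -0.020 for *Pde1b*, -0.030 for *Pde7b* and 0.053 for *Rgs9*, and in KO against HET 0.046 for *Gnal* and 0.013 for *Pde7b*. Without WT 3 and KO 3 together (chosen after seeing the data), the log2 fold change was in HET against WT -0.12 for *Adcy5*, -0.23 for *Gnal*, -0.28 for *Pde10a*, -0.18 for *Pde1b* and -0.20 for *Pde7b*. With the medium spiny neuron markers as a covariate (chosen after seeing the data), the log2 fold change was in HET against WT -0.0093 for *Gnal* and -0.029 for *Pde10a*, and in KO against WT 0.074 for *Adcy5*, 0.12 for *Gnal* and 0.14 for *Pde7b*, and in KO against HET 0.13 for *Gnal*, 0.032 for *Gng7* and 0.12 for *Pde7b*. Leaving out each library in turn, the log2 fold change in HET against WT ran from -0.32 to 0.14 for *Ppp1r1b*, from -0.12 to 0.38 for *Adcy5*, from -0.23 to 0.18 for *Gnal*, from -0.30 to 0.20 for *Gng7*, from -0.28 to 0.21 for *Pde10a*, from -0.18 to 0.32 for *Pde1b*, from -0.20 to 0.26 for *Pde7b* and from -0.33 to 0.18 for *Rgs9*. Leaving out each library in turn, the log2 fold change in KO against WT ran from -0.46 to 0.045 for *Adcy5*, from -0.35 to 0.057 for *Gnal* and from -0.36 to 0.059 for *Pde7b*. Over the same settings, the difference in family share in HET against WT (percentage points) ran from -3.35 to 5.69 for *Adcy5*, from -4.75 to 5.24 for *Gng7*, from -5.96 to 2.67 for *Gnal*, from -3.50 to 4.29 for *Pde10a*, *Pde1b* and *Pde7b*, from -2.07 to 0.628 for *Pde10a*, from -1.31 to 3.91 for *Pde1b*, from -0.127 to 0.184 for *Pde7b*, from -2.22 to 0.279 for *Rgs9* and from -1.70 to 2.25 for *Ppp1r1b*. Over the same settings, the difference in family share in KO against WT (percentage points) ran from -0.0278 to 0.227 for *Pde7b*. The direction of the HET differences therefore depends on the libraries included, and that of the KO differences from WT on WT 1 and WT 2 for up to 3 genes; the cause was not tested. The depth in reads is unknown, so the precision is that of 3 mice a genotype.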
